A study of Homo sapiens with 6 samples.

Results

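The genes examined were the inducible catalytic subunits of the proteasome, PSMB8, PSMB9 and PSMB10, their constitutive counterparts PSMB5, PSMB6 and PSMB7, and the activator subunits PSME1 and PSME2. They were chosen by name, 8 of the 61541 genes counted in each library. The rule itself uses no measured value, but the choice was made with earlier results of these data known. All 8 were listed in all 6 libraries, 7 passed the filter on low counts, and PSMB10 did not.

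The proteasome is a barrel-shaped protease that degrades ubiquitin-tagged proteins, and its cutting sites lie on 3 beta subunits, encoded by PSMB5 (beta5, which cuts after hydrophobic residues), PSMB6 (beta1, after acidic residues) and PSMB7 (beta2, after basic residues). Under interferon gamma, PSMB8 (beta5i), PSMB9 (beta1i) and PSMB10 (beta2i) are built into newly assembled barrels in place of PSMB5, PSMB6 and PSMB7, and the product is called the immunoproteasome. PSME1 and PSME2 encode the alpha and beta subunits of the 11S activator, a ring that caps the barrel. The peptides released are trimmed and carried into the endoplasmic reticulum by the TAP1-TAP2 transporter for loading onto MHC class I.

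RNA came from RCC4, an established human cell line of clear cell renal carcinoma, a kidney tumour of epithelial origin. The study had 3 untreated libraries and 3 libraries from cells exposed for 24 h to interferon gamma (IFNγ) and tumour necrosis factor (TNF), at 1000 U/mL and 25 ng/mL. No genotype, knockdown or vehicle is named for either group, and each biological replicate was drawn from 3 flasks of the same line. With the cytokines given only together and at a single time, their separate effects cannot be told apart, and in bulk RNA fewer responding cells cannot be told apart from less RNA per cell.

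The promoter sequences are shown first because PSMB8, PSMB10, PSME1 and PSME2, 4 of the 6 genes with a promoter window, share a short motif near a start of transcription. RefSeq (GRCh38.p14) gave windows from 250 bases before to 50 bases after a start for 6 of the 8 genes, in 8 windows; PSMB6 and PSMB7 had no entry. The capitals mark matches to the core of the element bound by interferon regulatory factors (IRFs), which is GAAA followed by any 2 bases and GAAA again. Both strands were searched, and a match on the other strand reads TTTC, any 2 bases, TTTC. Each line holds 120 bases, 5′ to 3′ on the gene's strand, from 90 bases before to 30 bases after the start, except for TAP1, which is shown from -170 to -51. The lines are PSMB8 at chr6:32844018-32844137 on the minus strand, PSMB10 at chr16:67936821-67936940 on the minus strand, PSME1 at chr14:24136104-24136223 on the plus strand and PSME2 at chr14:24146581-24146700 on the minus strand. They are followed by TAP1, the gene that faces PSMB9, at chr6:32853755-32853874 on the minus strand, and by PSMB5, a constitutive gene with no match, at chr14:23034871-23034990 on the minus strand.
PSMB8: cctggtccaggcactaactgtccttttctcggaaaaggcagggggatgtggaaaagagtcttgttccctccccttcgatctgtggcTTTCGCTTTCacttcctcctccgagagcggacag
PSMB10: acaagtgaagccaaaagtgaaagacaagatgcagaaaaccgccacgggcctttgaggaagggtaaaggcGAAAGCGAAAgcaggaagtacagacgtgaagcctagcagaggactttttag
PSME1: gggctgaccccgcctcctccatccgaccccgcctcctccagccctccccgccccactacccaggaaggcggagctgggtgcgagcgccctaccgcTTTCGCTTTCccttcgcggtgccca
PSME2: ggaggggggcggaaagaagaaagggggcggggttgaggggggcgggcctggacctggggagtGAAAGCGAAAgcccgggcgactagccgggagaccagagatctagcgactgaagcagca
TAP1: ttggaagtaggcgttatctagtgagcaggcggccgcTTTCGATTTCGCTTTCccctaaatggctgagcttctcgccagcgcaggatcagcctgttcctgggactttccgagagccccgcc
PSMB5: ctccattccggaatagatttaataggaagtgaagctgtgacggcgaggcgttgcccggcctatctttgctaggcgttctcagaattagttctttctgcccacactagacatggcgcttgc

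The matches had the same 10 letters in all 4 genes, on the plus strand of the gene in PSMB10 and PSME2 and on the other strand in PSMB8 and PSME1. They lay close to the start: from -21 to -12 in PSMB10, from -28 to -19 in PSME2, from -4 to 6 in PSMB8 and from 6 to 15 in PSME1, counted in bases from the start of transcription. PSMB8 has 2 annotated starts, and the match was at the downstream one, at 32844047. The IRF core was found in 1255 of all 35116 RefSeq windows of this length (3.57%). No match was found in the PSMB9 window or in either PSMB5 window. PSMB9 and TAP1 are transcribed away from each other from starts 487 bases apart, and TAP1 held a pair of overlapping IRF cores at chr6:32853823-32853838, 354 bases from the PSMB9 start and outside the PSMB9 window.

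Another 3 motifs were searched in the same way. The GAS element, the gamma interferon activation site (TTCNNNGAA, in 7.66% of windows) was found in PSMB8 at -65 and in PSMB5 at -158 and -15. TAP1 held a GAS match at -189 from another annotated start, at 32852761. The antioxidant response core TGACNNNGC, bound by NFE2L1 and NFE2L2 (in 13.4% of windows), was found in PSMB9 at -148, in PSME1 at -86 and in PSME2 at -175. The kappaB element of NF-kappaB (in 11.3% of windows) was found in none of the 8 windows of the 6 genes that had one. In TAP1 it was found at -72 and 23 from the start that faces PSMB9. A match is a string of letters in the reference, and binding was not measured.

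**Figure D1:**
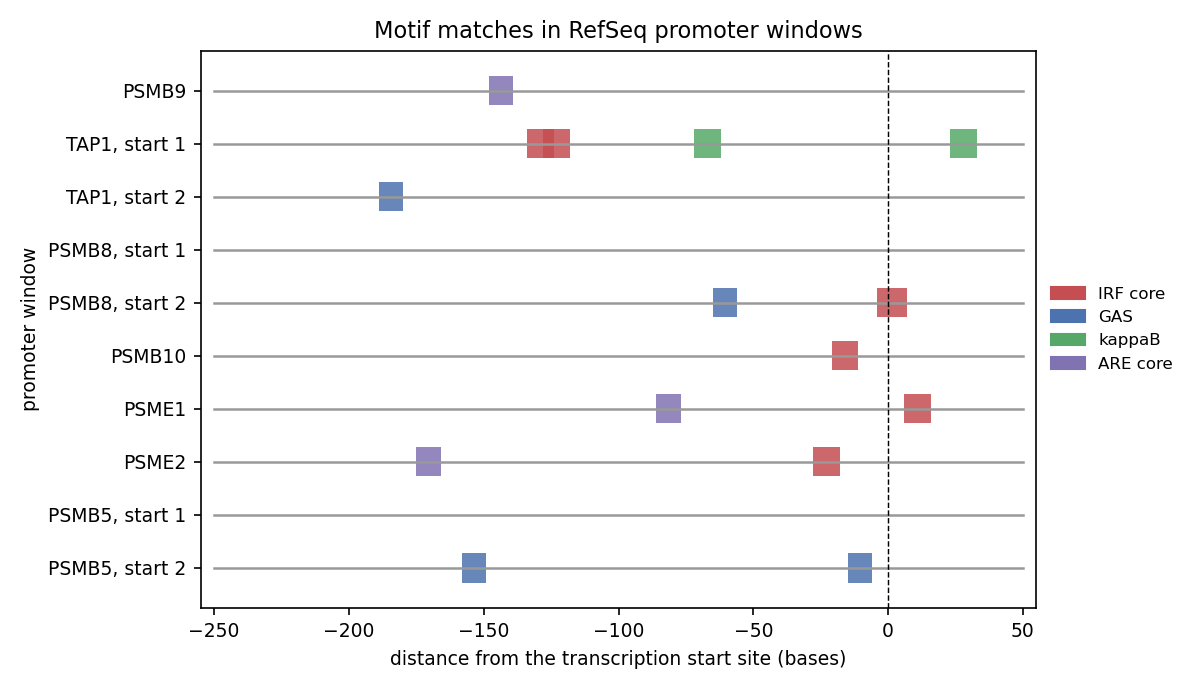
Motif matches in the RefSeq promoter windows of 6 of the 8 genes and of TAP1. The x axis is the distance in bases from the start of transcription (dashed line), each grey line is a window, and coloured boxes mark matches on either strand. The red IRF core boxes of PSMB8, PSMB10, PSME1 and PSME2 lie between -28 and 15.

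The libraries held between 3626000 and 4406296 counted reads, so 3 reads, the upper limit for a gene with 0 reads, were worth 0.681 to 0.827 CPM (reads per 1000000 reads of the library) before TMM scaling. This limit and the read-share intervals given later cover counting error only. Pairs of replicates had chi-square values per degree of freedom of 3.48 to 24.7, above counting noise, and untreated replicate 3 stood apart from the other untreated libraries. It was the lowest untreated library for 30 of the 42 tested proteasome genes (71.4%), against 41.1% of all 10067 genes tested, which was looked at after the values were seen, so results are also given without it. Of 12 renal carcinoma markers, 10 had more than 3 counts in every library (LRP2 had none and CUBN at most 2). The sums were 6791 to 8301 CPM in untreated and 8865 to 11980 CPM in treated libraries. VIM made up most of each sum (4409 to 4973 CPM in untreated and 6325 to 8107 CPM in treated libraries). VIM was higher in every treated library than in any untreated one, and PAX8 and KRT19 were lower in every treated library. The other renal carcinoma markers overlapped. Of 11 leukocyte markers 8 were at 0 in all libraries, among them PTPRC, CD3E, MS4A1, LYZ and CD68, and the list summed to at most 0.262 CPM in untreated and 0.677 CPM in treated libraries. All 4 endothelial markers were at 0, and of 4 fibroblast markers COL1A1 and PDGFRB were present, with sums of 54.8 to 74.5 CPM in untreated and 27.4 to 49.1 CPM in treated libraries. The part of these differences in the results was not tested. IFNγ and TNF exposure moved 819 of 10067 genes (8.14%) past an adjusted p of 0.05 by edgeR's quasi-likelihood test, 562 higher and 257 lower. The split was 485 higher and 364 lower with library totals as the only scaling, which moved the all-gene median from -0.03 to -0.13 on the log2 scale.

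After cytokine exposure, 4 of the 7 genes tested rose and none fell: PSMB9, PSMB8, PSME1 and PSME2 (edgeR's quasi-likelihood test, adjusted p under 0.05 over all genes). Over all genes tested, 5.58% were called higher and 2.55% lower, 8.14% in all. The median log2 fold change of the 7 was 1.58, against -0.03 over all genes. These counts and medians are descriptions, since PSME2 passed the filter on low counts through its treated libraries and PSMB10 did not pass it. The same 4 genes had CPM values that did not overlap between groups, all higher in treated cells. Among all genes tested 25.9% did not overlap, made up of 13.9% higher and 12% lower in treated cells. The constitutive PSMB5, PSMB6 and PSMB7 overlapped between groups and were not past the threshold.

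PSMB9, the inducible beta1i subunit (ENSG00000240065, GRCh38 chr6:32844136-32859851, plus strand, in the class II region of the MHC), had 352, 360 and 351 reads in the untreated libraries and 5217, 5552 and 4526 in the treated ones. These were 92.2, 93.1 and 79.9 CPM against 1507, 1253 and 1291 CPM. Every treated library lay more than 10-fold above every untreated one, and no other gene of the 8 that was tested moved as far. The mean rose from 88.4 ± 7.34 to 1350 ± 137 CPM (SD, n = 3 each), 15.3-fold, with a log2 fold change of 3.93 (SE 0.18, 95% interval 3.53 to 4.34, edgeR adjusted p = 5.25e-06). Without untreated replicate 3 the log2 fold change was 3.86.

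PSMB8, the inducible beta5i subunit (ENSG00000204264, chr6:32840717-32844679, minus strand), overlaps the annotated 5′ end of PSMB9 and points the opposite way. Its reads numbered 602, 547 and 612 in untreated and 3982, 3997 and 3412 in treated libraries, or 157.6, 141.4 and 139.4 CPM against 1150, 902.1 and 973.2 CPM. The untreated libraries were close to each other and the groups were far apart. The mean rose from 146.1 ± 9.99 to 1008 ± 128 CPM, 6.90-fold, with a log2 fold change of 2.79 (SE 0.18, interval 2.39 to 3.18, edgeR adjusted p = 2e-05). Without untreated replicate 3 it was 2.75. Exons of PSMB8 face 602 bases of PSMB8-AS1 and PSMB9 exons on the other strand, and counting used strand. The RefSeq start of PSMB9 used for its promoter window, at 32854192, lies downstream of this annotated 5′ end, with TAP1 (chr6:32845209-32853816) in between.

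PSMB10, the inducible beta2i subunit (ENSG00000205220, chr16:67934506-67936864, minus strand), was at the edge of detection, with 1, 1 and 0 reads in untreated and 6, 11 and 14 in treated libraries. That is 0.262, 0.259 and 0 CPM against 1.73, 2.48 and 3.99 CPM. The highest untreated library was below the lowest treated one, but all untreated libraries were under the 3-count limit. Summed over libraries and scaled to library size, the 31 treated reads were 16.4 times the 2 untreated reads, with an exact 95% counting interval of 4.18 to 142. The filter on low counts removed it from the test. In the fit of every gene with at least 1 count, its log2 fold change was 3.83 (edgeR adjusted p = 0.000295), where 4.43% of 19158 genes were called higher. Its low level is read beside the annotation: 469 of the 500 exonic bases nearest its 3′ end (93.8%) also lie in exons of ENSG00000261884, a gene on the same strand at chr16:67929614-67936017 that held 0 counts in all 6 libraries. By default the counting program discards reads that overlap exons of several genes, and the part of this overlap in the level of PSMB10 was not tested.

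**Figure D2:**
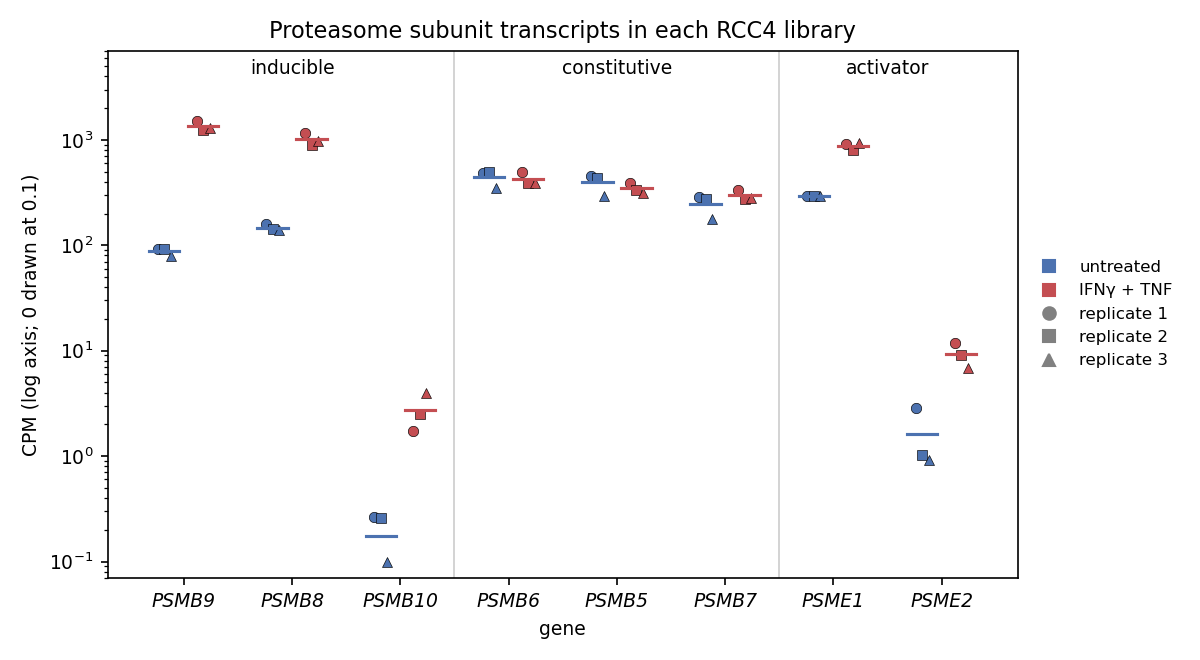
Level of the 8 genes in each library, in TMM-normalised CPM on a log axis (a value of 0 is drawn at 0.1). Points are libraries, shaped by replicate, and horizontal bars are group means (n = 3). PSMB9, PSMB8, PSME1, PSME2 and PSMB10 separate by treatment, while PSMB6, PSMB5 and PSMB7 overlap.

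The constitutive subunits were, per kb of exon, more abundant than PSMB8 and PSMB9 in untreated cells, with no called change. PSMB5 (beta5, ENSG00000100804, chr14:23016543-23035230) was at 453.7, 433.8 and 294.9 CPM in untreated and 392.2, 334 and 311.5 CPM in treated libraries. Untreated replicates 1 and 2 lay above all treated libraries and replicate 3 below them. The means were 394.2 ± 86.5 and 345.9 ± 41.7 CPM, a log2 fold change of -0.19 (SE 0.21, interval -0.65 to 0.28, edgeR adjusted p = 0.728). Without untreated replicate 3 it was -0.37 (edgeR adjusted p = 0.209).

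PSMB6 (beta1, ENSG00000142507, chr17:4796144-4798502) was at 483.6, 500 and 349.8 CPM in untreated and 490.4, 389.8 and 389.6 CPM in treated libraries. Treated replicate 1 fell among the high untreated values, and untreated replicate 3 was again the lowest. The means were 444.5 ± 82.4 and 423.3 ± 58.1 CPM, a log2 fold change of -0.07 (SE 0.20, interval -0.51 to 0.37, edgeR adjusted p = 0.912). The sign of this value changed when certain single libraries were left out, so no direction is given.

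PSMB7 (beta2, ENSG00000136930, chr9:124353465-124415444) was at 288, 275.4 and 177.4 CPM in untreated and 337.9, 274.9 and 282.1 CPM in treated libraries. Only untreated replicate 3 lay apart from the treated range. The means were 246.9 ± 60.5 and 298.3 ± 34.5 CPM, a log2 fold change of 0.27 (SE 0.22, interval -0.22 to 0.76, edgeR adjusted p = 0.588), and 0.08 without that library. The 3 intervals reach from -0.65 to 0.76 on the log2 scale. They leave out a change of the size seen for PSMB8 or PSMB9 and do not show that the levels were equal.

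The activator subunits, which form a single ring in the protein, differed in level per kb of exon by a wide margin. PSME1 (the 11S alpha subunit, ENSG00000092010, chr14:24136163-24138967, plus strand) was at 291.7, 294 and 296.3 CPM in untreated and 907.1, 798 and 926.7 CPM in treated libraries. The untreated values were nearly identical, replicate 3 included, and every treated value was well above them. The mean rose from 294.0 ± 2.31 to 877.3 ± 69.3 CPM, 2.98-fold, with a log2 fold change of 1.58 (SE 0.15, interval 1.23 to 1.93, edgeR adjusted p = 0.000285). It was also 1.58 without untreated replicate 3.

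PSME2 (the 11S beta subunit, ENSG00000100911, chr14:24143362-24147570, minus strand) had 11, 4 and 4 reads in untreated and 41, 40 and 24 in treated libraries, or 2.88, 1.03 and 0.911 CPM against 11.8, 9.03 and 6.85 CPM. The groups did not overlap, and untreated replicate 1 was the high value of its group. The mean rose from 1.61 ± 1.10 to 9.24 ± 2.5 CPM, 5.74-fold, with a log2 fold change of 2.51 (SE 0.49, interval 1.41 to 3.62, edgeR adjusted p = 0.013). Without a filter, with every gene of at least 1 count fitted, it was 2.54 (edgeR adjusted p = 8.39e-06). The call was lost without treated replicate 1 (edgeR adjusted p = 0.051) and without untreated replicate 2 (0.0703), and kept without untreated replicate 3 (0.0126, log2 fold change 2.21). Without untreated replicate 1, the high value of its group, the log2 fold change was 3.23 (edgeR adjusted p = 0.00271).

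Counts of PSME2 are uncertain for more than 1 reason. The microRNA gene MIR7703 (chr14:24143489-24143565, 0 counts in all libraries) lies on the same strand, 127 bases from the annotated 3′ end. Of 9 annotated 3′ terminal exons of PSME2, 8 share exactly 1 base with it, position 24143489, and 1 covers it whole. That base is the first of the exon in those 8, so a read spliced into any of them at its annotated start would touch an exon of another gene, and the part of this in the PSME2 level was not tested. In addition, a pair of PSME2 pseudogenes elsewhere in the genome, singled out after their values were seen, held about as many reads as the gene itself. PSME2P1 (chr5:98213402-98214121) had 4, 12 and 5 reads in untreated and 35, 41 and 40 in treated libraries. PSME2P2 (chr13:48771128-48771827) had 11, 11 and 9 against 44, 49 and 34. Both followed PSME2 in direction, with fold changes on the log2 scale of 2.53 (SE 0.45, edgeR adjusted p = 0.00793) and 2.10 (SE 0.33, edgeR adjusted p = 0.00414). Unlike PSME2, both stayed past the threshold in all 13 alternative fits. Whether these reads came from PSME2 transcripts or from the pseudogenes was not tested. The sum of the gene and both pseudogenes rose from 5.96 ± 1.62 to 30.7 ± 3.54 CPM, 5.14-fold. Of the 7 pseudogenes named after the 8 genes, these were the only ones with more than 1 read in any library.

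Ratios within a library need no library size and set each inducible subunit against the one it replaces. PSMB9 reads per PSMB6 read were 0.191, 0.186 and 0.229 in untreated and 3.07, 3.22 and 3.31 in treated libraries. The ratio moved from well under 1 to above 3 in every treated library, and untreated replicate 3 was the highest of its group. The means were 0.202 ± 0.0233 and 3.20 ± 0.121, a difference of 3.99 on the log2 scale or 15.9-fold. Per kb of annotated exon, of which PSMB9 has more, the ratio went from 0.0875 ± 0.0101 to 1.39 ± 0.0525. Strands were read from the 3′ end, so reads need not scale with exon length and the per kb value is not a correction.

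PSMB8 reads per PSMB5 read were 0.347, 0.326 and 0.473 in untreated and 2.93, 2.70 and 3.13 in treated libraries. Again every treated library was above 1 and every untreated one below it. The means were 0.382 ± 0.0792 and 2.92 ± 0.212, a log2 difference of 2.95 or 7.73-fold, and per kb of exon 0.170 ± 0.0353 and 1.30 ± 0.0945. The ratio of the inducible subunits themselves, PSMB9 to PSMB8, also moved: it was 0.585, 0.658 and 0.574 in untreated and 1.31, 1.39 and 1.33 in treated libraries, a log2 difference of 1.15 or 2.22-fold. PSMB9 was thus the scarcer of the inducible pair before exposure and the more abundant after it, in reads and per kb of exon (0.631 ± 0.0479 and 1.40 ± 0.0434).

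The remaining ratios rested on few reads. PSMB10 to PSMB7 rose by 3.10 on the log2 scale with 0.5 read added to each count, and by 2.56 with 1 read added. PSME2 to PSME1 differed by 1.00 on the log2 scale, and its groups overlapped because of untreated replicate 1. By a 2-sided exact permutation test of 3 libraries against 3, where 0.1 is the smallest p possible, p was 0.1 for the first 3 ratios and PSMB10/PSMB7 (0.125 adjusted over the 5 ratios) and 0.2 for PSME2/PSME1 (adjusted 0.2). This test therefore could not reach 0.05 for any ratio. Without untreated replicate 3 the log2 differences were 4.08 for PSMB9/PSMB6, 3.11 for PSMB8/PSMB5 and 1.11 for PSMB9/PSMB8.

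**Figure D3:**
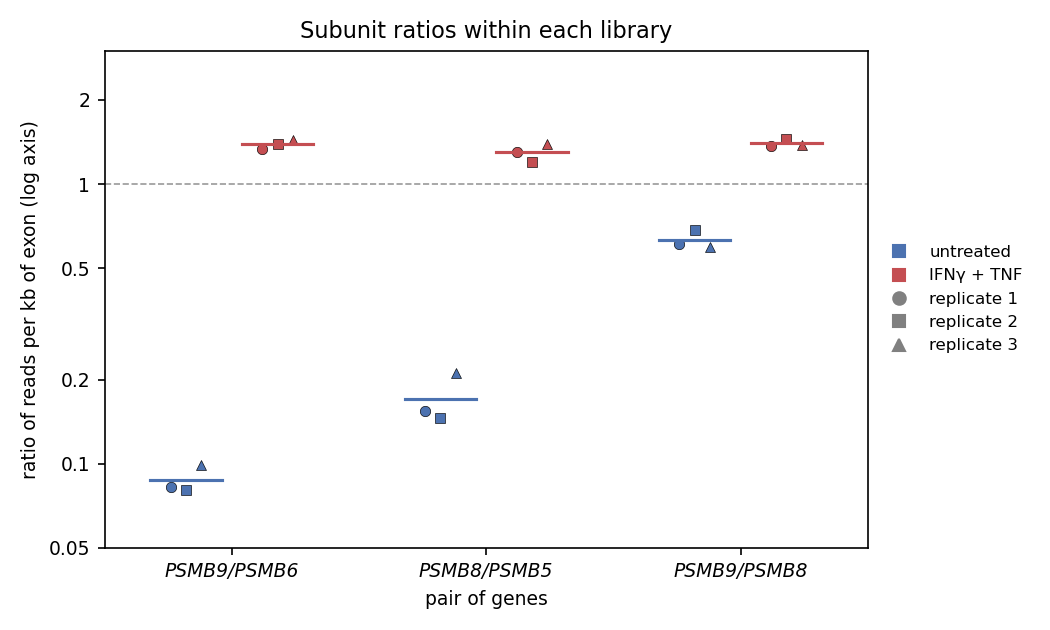
Ratio of reads per kb of exon within each library for 3 pairs of genes, on a log axis. Points are libraries, shaped by replicate, bars are group means (n = 3), and the dashed line marks a ratio of 1. All untreated libraries lie below 1 and all treated libraries above it for each pair.

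On a linear scale, PSMB9 made up 16.0% (95% Wilson interval 14.5 to 17.6), 15.7% (14.3 to 17.2) and 18.6% (16.9 to 20.4) of the reads of PSMB9 and PSMB6 together in untreated libraries. In treated libraries it made up 75.4% (74.4 to 76.4), 76.3% (75.3 to 77.2) and 76.8% (75.7 to 77.9). The treated shares lay within 1.4 percentage points of each other, although the CPM of PSMB9 in the same libraries ran from 1253 to 1507. The group means were 16.8% ± 1.60 and 76.2% ± 0.695. For PSMB8 of PSMB8 and PSMB5, the shares were 25.8%, 24.6% and 32.1% in untreated and 74.6%, 73.0% and 75.8% in treated libraries, with means of 27.5% ± 4.03 and 74.4% ± 1.39. The untreated starting points of the pairs were apart, and the treated shares of both lay between 73.0% and 76.8%. PSMB10 reached 0.934% ± 0.444 of the reads of PSMB10 and PSMB7 in treated libraries, and 0.0616% ± 0.0533 in untreated ones.

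**Figure D4:**
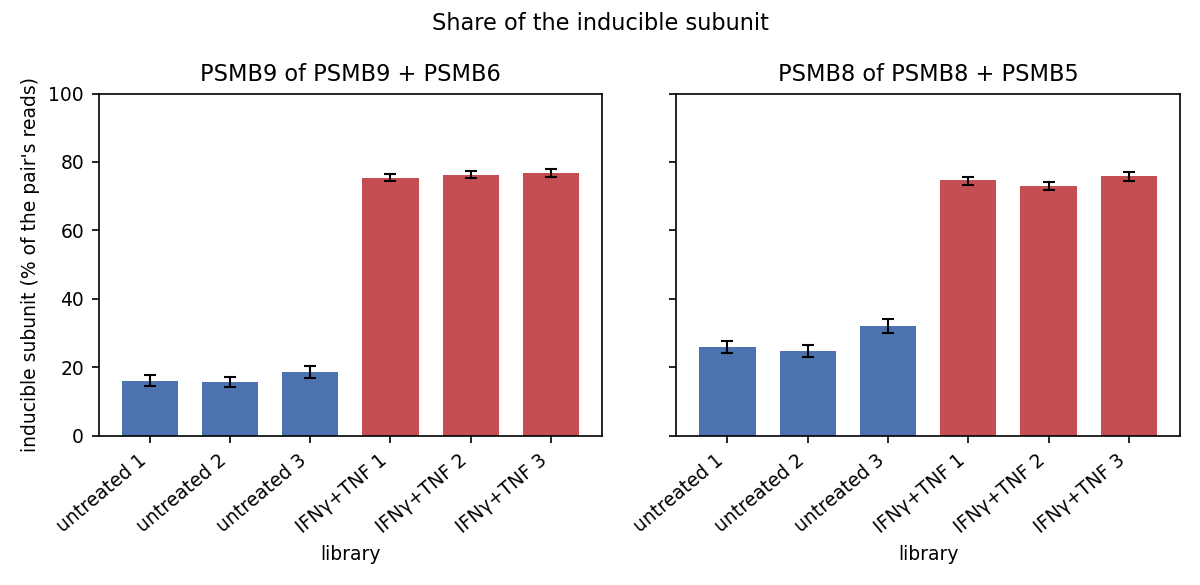
Share of a pair's reads that came from the inducible gene, in percent, for each library. Bars start at 0 and error bars are 95% Wilson intervals, which cover counting error only. PSMB9 stands at 15.7 to 18.6% in untreated and 75.4 to 76.8% in treated libraries, and PSMB8 at 24.6 to 32.1% and 73.0 to 75.8%.

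The shift in shares came with more transcript in all. PSMB8 and PSMB9 together rose from 234.5 ± 15.2 to 2359 ± 264 CPM, 10.1-fold, while PSMB5 and PSMB6 together were at 838.6 ± 168 and 769.1 ± 98.9 CPM. The beta5 pair (PSMB8 plus PSMB5) therefore went from 540.3 ± 93.6 to 1354 ± 165 CPM, 2.51-fold, and the beta1 pair (PSMB9 plus PSMB6) from 532.9 ± 89.7 to 1773 ± 195 CPM, 3.33-fold. These sums are descriptions without a test of their own.

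Ranked by level per kb of annotated exon, untreated cells had PSMB6 highest (307.2 ± 57.0 CPM per kb), followed by PSMB5 (254.5 ± 55.9), PSME1 (165.5 ± 1.30), PSMB7 (138.1 ± 33.9), PSMB8 (42.0 ± 2.87), PSMB9 (26.5 ± 2.20), PSME2 (0.449 ± 0.308) and PSMB10 (0.107 ± 0.0924). The libraries of PSMB6 and PSMB5 overlapped, but PSMB6 was the higher within each untreated library. PSME1 and PSMB7 did not overlap, with a lowest value of 164.2 against a highest of 161.1 CPM per kb. In treated cells the order was PSME1 (494.0 ± 39.0 CPM per kb), PSMB9 (404.5 ± 41.0), PSMB6 (292.5 ± 40.2), PSMB8 (289.8 ± 36.7), PSMB5 (223.3 ± 26.9), PSMB7 (166.8 ± 19.3), PSME2 (2.58 ± 0.699) and PSMB10 (1.68 ± 0.708). There PSMB6 and PSMB8 did not differ beyond their spread, and the libraries of PSME2 and PSMB10 overlapped. Those of PSME1 and PSMB9 also overlapped, but within each treated library PSME1 was the higher per kb and PSMB9 the higher in reads. The exonic length is the union of all annotated exons and can exceed that of the transcripts present. Strands were read from the 3′ end, so reads need not scale with it, and the order depends on it. In reads alone, the untreated order was the same. The treated order in reads was PSMB9 (1350 CPM), PSMB8 (1008), PSME1 (877.3), PSMB6 (423.3), PSMB5 (345.9), PSMB7 (298.3), PSME2 (9.24) and PSMB10 (2.74).

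Of the 38 other proteasome genes examined, 35 were tested, 2 were called higher and none lower, against 5.58% of all genes tested called higher. Their median log2 fold change was 0.13 (range -0.23 to 1.37), against -0.03 over all genes. The genes called were the barrel's alpha-ring subunits PSMA4 and PSMA5, among 5 of 7 alpha genes tested (median 0.77). PSMA4 was at 88.2, 109.6 and 152.1 CPM in untreated and 199.3, 409.6 and 294.3 CPM in treated libraries, which gives 1.37 on the log2 scale (SE 0.30, edgeR adjusted p = 0.022). PSMA5 was at 297.9, 267.9 and 184.9 CPM against 417.3, 491.3 and 435.2 CPM, which gives 0.84 on the log2 scale (SE 0.21, edgeR adjusted p = 0.0387). Neither gene's groups overlapped. The same held for PSMB2, PSMB3, PSMB4, PSMC1, PSMD7, PSMG2, PSMG4, PSMF1 and POMP, all higher in treated cells and not called. Over all genes tested, 13.9% did not overlap and were higher in treated cells. Leaving out 1 library at a time ended the call of PSMA4 in 3 of 6 cases (edgeR adjusted p up to 0.0966) and that of PSMA5 in 4 of 6 (up to 0.13). With library totals as the only scaling, PSMA4 had an edgeR adjusted p of 0.0617.

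No gene was called among the 4 non-catalytic beta subunits (median 0.37), the 6 ATPases of the 19S cap (median 0.15), its 12 other subunits (median 0.06), the 5 assembly factors (median 0.36) or the 3 other activators and inhibitors (median 0.07). The assembly factors include POMP, the maturation factor of the 20S barrel, which is named here after its values were seen. It was at 112.1, 157.2 and 179.4 CPM in untreated and 220.6, 357.7 and 271 CPM in treated libraries, with no overlap (log2 fold change 0.92, SE 0.24, edgeR adjusted p = 0.0515). POMP was past the threshold in 5 of the 7 alternatives of scaling, filter, tool or block and in 2 of the 6 fits without a library, with adjusted p from 0.00051 to 0.149 over all of them. PSMA2, PSMA6 and the thymus-specific PSMB11 were not tested, with 0, 2 and 0 reads over all libraries. Like PSMB10, PSMA2 and PSMA6 share much of their 3′ 500 bases with another gene on the same strand, 93.4% and 45.2%, and the part of this in their counts was not tested.

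**Figure D5:**
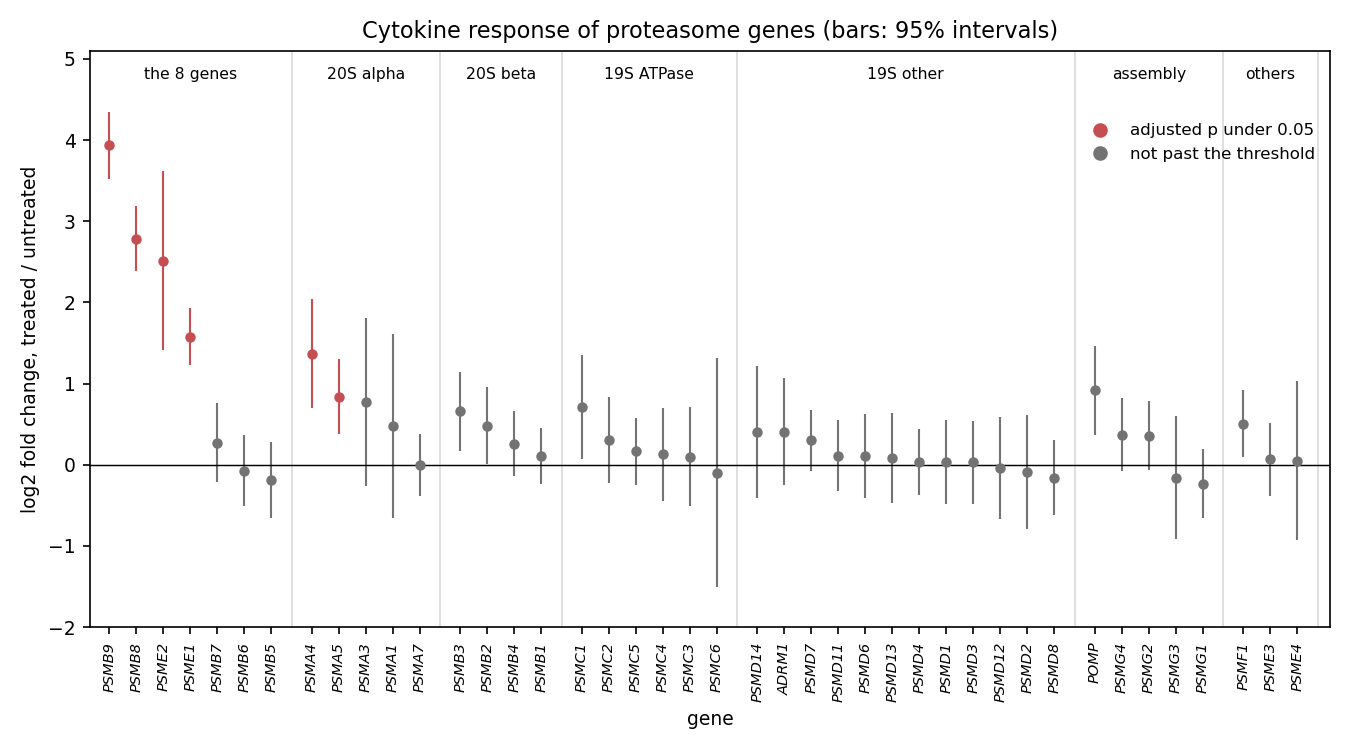
Log2 fold change (treated over untreated) of the 42 proteasome genes tested, grouped by their place in the particle. Vertical lines are 95% intervals, and red marks genes with an edgeR adjusted p under 0.05. PSMB9, PSMB8, PSME2 and PSME1 lie between 1.58 and 3.93, and the 35 genes outside the 8 lie between -0.23 and 1.37. PSMB10 was not tested and is not drawn.

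Known regulators of these genes were examined in the same fit. IRF1, NLRC5, RELA and NFE2L1 were called higher, and NFKB1 and NFE2L2 were not called. IRF1, the interferon-induced factor that binds the IRF core, rose from 34.0 ± 5.93 to 1331 ± 156 CPM (log2 fold change 5.29, edgeR adjusted p = 3.34e-06). NLRC5, the transactivator of MHC class I genes, rose from 11.9 ± 1.07 to 101.0 ± 16.1 CPM (log2 fold change 3.09, edgeR adjusted p = 3.62e-05). RELA, an NF-kappaB subunit, rose from 101.4 ± 22.9 to 314.5 ± 64.3 CPM (log2 fold change 1.63, edgeR adjusted p = 0.00301). NFE2L1, which drives constitutive proteasome genes when proteasome activity is short, rose from 62.5 ± 7.20 to 108.3 ± 14.7 CPM (log2 fold change 0.79, edgeR adjusted p = 0.0331). That call was lost in 4 of 6 fits without a library (edgeR adjusted p up to 0.174) and with library totals as the only scaling (0.058). NFKB1 and NFE2L2 had log2 fold changes of 0.64 and 0.60 (edgeR adjusted p = 0.0683 and 0.684).

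Around PSMB8 and PSMB9 in the MHC, TAP1 rose from 72.9 ± 8.97 to 1753 ± 176 CPM (log2 fold change 4.59, edgeR adjusted p = 3.34e-06) and TAP2 from 5.96 ± 2.00 to 68.1 ± 4.52 CPM (log2 fold change 3.51, edgeR adjusted p = 6.02e-05). PSMB8-AS1, an antisense RNA whose exons share 174 bases with PSMB9 on the same strand, had 1, 4 and 3 reads in untreated and 15, 10 and 3 in treated libraries and was not tested.

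Genes whose levels followed those of the inducible genes most closely over the 6 libraries were ranked by Pearson's r of log2 CPM among 10060 genes. The points form 2 groups of 3 libraries, so r mostly measures the step between groups and is given without a p. The nearest to PSMB9 were TAP1 (r = 0.9999), IRF1 (0.9994) and HLA-F (0.9992). The nearest to PSMB8 were TAP1 (0.9986), NLRC5 (0.9983) and TMEM229B (0.9983), and the nearest to PSME1 were HLA-DQB1 (0.9999), TNFRSF14 (0.9996) and HLA-E (0.9996). TMEM229B, HLA-DQB1 and TNFRSF14 were at 0 CPM in untreated cells and averaged 4.69, 4.19 and 15.7 CPM in treated ones. They passed the filter through the treated libraries alone, and their r reflects a step from 0. Values of r this high were common: 80 genes exceeded 0.99 with PSMB9, 69 with PSMB8 and 107 with PSME1. Among the 8 genes themselves, PSMB8 and PSMB9 had r = 0.9988, PSMB5 and PSMB6 had 0.948, and PSMB9 and PSMB6 had -0.100.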

How the data were processed

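Direct RNA nanopore libraries (native RNA strands read from the 3′ end, from 500 ng of poly(A)-enriched RNA, 72 h of sequencing, reads with quality above 7) were made from 3 untreated and 3 treated replicates, per the labels' protocols and the series text. The deposited values are whole-number read counts per gene with the exonic Length of each gene, made by the authors with featureCounts 2.0.1 in long-read, strand-specific mode on Ensembl 105 exons, without options for multi-mapping or multi-gene reads, per the file headers. The submitters' processing notes list minimap2 2.24, SAMtools 1.16, featureCounts 2.0.0 and hg38. Alignment names in the headers carry the word dmso, while the labels name no vehicle. Groups came from sample titles. Of 61541 identifiers, 61369 had a symbol in the name table supplied.

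Counts were tested with edgeR 4.0.16 (R 4.3.3), TMM scaling, filterByExpr, group as the sole term and Benjamini-Hochberg adjustment over 10067 genes. CPM use TMM-scaled library sizes. Pair ratios had 0.5 read added and an exact permutation test (SciPy 1.17.1). The fitting code was tested on simulated data. Alternatives were DESeq2 1.42.0, limma 3.58.1 (voom), other scalings and filters, a replicate block and leaving out each library. The 8 genes and all lists were chosen with earlier results of these data known. Beyond the 8, genes past the threshold on the lists and the 3 nearest in pattern were named. Other proteasome genes whose groups did not overlap were named after the values were seen. Protein sequences were not used here. One regulator on the lists is not reported here.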

Additional observations from a re-analysis of the deposited data

How the results depend on the processing

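PSMB8, PSMB9 and PSME1 stayed called higher in all 13 alternative fits (log2 fold changes 2.68 to 2.91, 3.83 to 4.03 and 1.47 to 1.69). PSME2 ranged from 2.21 to 3.23, and PSMB5, PSMB6 and PSMB7 were called in none. Between 3 and 5 of the 8 genes were called, the fifth being PSMB10, which had a value only with every gene of at least 1 count fitted. PSMB6 had log2 fold changes of 0.0175 without untreated replicate 1, 0.0238 without untreated replicate 2 and 0.0321 without treated replicate 2 (range -0.2234 to 0.0321 over single libraries left out). Over all genes, 1328 were called with every gene of at least 1 count fitted and 455 to 1178 with 1 library left out (455 without treated replicate 3, 465 without untreated replicate 2). Other proteasome genes called numbered 1 with library totals, 5 with every gene of at least 1 count and 0 to 3 with 1 library left out (0 without untreated replicate 2, treated replicate 2 or treated replicate 3). Same-numbered libraries deviated together for numbers 1 and 3 (r 0.651 and 0.374) but not for number 2 (-0.004), and not every library correlated best with its own number, so the numbers were not taken as pairs. With the replicate block 1513 genes, 4 of the 8 and 5 other proteasome genes were called, and the mean differences of the 5 ratios were as without it, with an exact sign-flip p of 0.25, the smallest possible. All 9 alternatives of each ratio kept its direction. The comparison of protein identity was not run. Depth limits PSMB10 and PSME2, at 33 and 124 reads in all. Some fits also differed in the number of samples or genes that entered, and the causes of these shifts were not tested.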

Other observations

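The IRF core was also counted over all genes with a RefSeq window, as a description. It lay in 308 of 7964 tested genes (3.87%) and in 78 of the 413 with a window that were called higher (18.9%). The GAS element lay in 8.23% of tested genes and in 18.4% of those called higher, the kappaB element in 17.4% and 26.2%, and the antioxidant response core in 19.9% and 21.1%. Of 34 other proteasome genes with a window, 3 held an IRF core (PSMA4, PSMB4 and PSMG4). PSMA4 was called higher, with a loss of the call in some fits, and PSMB4 and PSMG4 had log2 fold changes of 0.26 and 0.37 and were not called. The antioxidant response core lay in 11 of the 34, GAS in 5 and kappaB in 1.

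The IRF core of PSME2 also falls in the promoter window of RNF31, a ubiquitin ligase gene that starts close by on the other strand. RNF31 had 1 read in 1 treated library and none in the other 5 libraries, and PSME2 had 124 reads over the 6 libraries. A further gene, ENSG00000259529, also has exons opposite those of PSME2, on the strand of RNF31. Reads that overlap exons of several genes are discarded by default, and the part of this in the RNF31 count was not tested.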
